A study of Mus musculus with 24 samples.

Results

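Transcripts of 32 genes of glucose uptake, glycolysis, lactate handling and the response to low oxygen were followed in sorted mouse lung macrophages. The genes were chosen by name and comprise 3 glucose transporters, 3 hexokinases, 5 genes for phosphofructokinase and its regulators, 9 glycolytic enzymes, 5 lactate and pyruvate genes and 7 genes of the hypoxia pathway. All 32 were found among the 49022 genes counted in both deposited tables, and all 32 passed the filter on low counts in each of the 8 comparisons.

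Glucose enters cells through facilitative transporters of the Slc2a family, is phosphorylated by hexokinases and is converted to pyruvate by the glycolytic enzymes. Lactate dehydrogenase, a tetramer of Ldha and Ldhb subunits, interconverts pyruvate and lactate, and the monocarboxylate transporters Slc16a1 and Slc16a3 carry lactate across the plasma membrane. Hypoxia inducible factors bind a short core motif near many of these genes, and the prolyl hydroxylases encoded by Egln1 and Egln3 mark their alpha subunits, such as Hif1a, for degradation when oxygen is present. Macrophages are known to raise glycolysis on inflammatory activation.

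The study sorted lung macrophages after bleomycin, a drug whose lung injury serves as a fibrosis model, or after PBS, and sequenced their polyadenylated RNA in 24 libraries that form 8 groups of 3. CD11b+ SiglecF- cells are called interstitial macrophages (IMs) and CD11b- SiglecF+ cells alveolar macrophages (AMs). Wild-type C57BL/6J mice gave IMs at day 7 after PBS and at day 7 after bleomycin (3 µg per g, given intratracheally). From Spp1-EGFP knock-in (KI) reporter mice, whose EGFP marks Spp1 expression, bleomycin groups were IMs sorted into an EGFP- and an EGFP+ fraction on day 7, IMs of the EGFP+ fraction on day 14, and AMs of that fraction on days 14 and 30. The reporter PBS group was the EGFP+ AM fraction on day 7. The labels give neither the age and sex of the animals, the strain background and zygosity of the reporter mice, nor whether a library pools animals. Since nothing says that replicates came from separate animals, p-values measure only the spread between these libraries.

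Total counts ran from 13450053 to 24580620 per library, and the 32 genes took between 0.494% and 1.234% of them. The day 14 and day 30 libraries lie in a separate table, so for IMs at day 14 against day 7 and for AMs after bleomycin against PBS, table and group cannot be told apart. In those AM comparisons the day differs along with the treatment, because the PBS AMs were taken at day 7. Of the 32 genes, 23 had the same start, end and strand and the same overlapping genes in both tables. These are called genes with unchanged models and neighbours below. Among the others, start or end differed for Pfkm, Aldoa, Pgam1, Ero1l and Ndrg1. For Gpi1, Pfkp, Slc16a3 and Hif1a only the overlapping genes or their bounds differed. Gpi1 overlaps the opposite-strand gene Gm26762 in the table of the day 7 libraries only, where Gm26762 took up to 20.9% of the counts of both. Exons were not compared, so the models of these 23 genes may still differ inside. The sum of 10 alveolar macrophage markers was 15433 to 25426 CPM (each count divided by its library's total and scaled to a common size) in the AM libraries and 958 to 3725 CPM in the IM libraries. In these bulk libraries, fewer cells of a type and less RNA per cell cannot be told apart. The 3 day 14 IM libraries correlated least with each other over all genes (r from 0.9685 to 0.9821, against 0.9833 to 0.9933 in the other groups).

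Levels below are CPM of the total count, given for replicates 1, 2 and 3 in that order, and changes are log2 fold changes with their standard errors (SE) from edgeR's quasi-likelihood test with TMM scaling. Calls needed an adjusted p below 0.05, and every adjusted p is from this test with Benjamini-Hochberg correction across all genes in the fit. Overlap refers to the CPM ranges of the 2 groups. The share of all genes without overlap was not worked out for any comparison, so a lack of overlap describes the named genes only. Per kilobase of exon, Pkm and Aldoa were among the 3 most abundant of the 32 genes in every group. The group means of Aldoa, which splits fructose bisphosphate, ran from 123 CPM per kb in wild-type IMs after PBS to 434 CPM per kb in day 14 AMs. Those of Pkm, the pyruvate kinase gene, ran from 170.4 CPM per kb in PBS AMs to 471 CPM per kb in day 14 IMs. Pfkm, the muscle phosphofructokinase, was among the lowest at 0.483 to 3.14 CPM per kb, and it overlaps the opposite-strand gene Senp1, which took up to 94.6% of the counts of both genes.

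**Figure D1:**
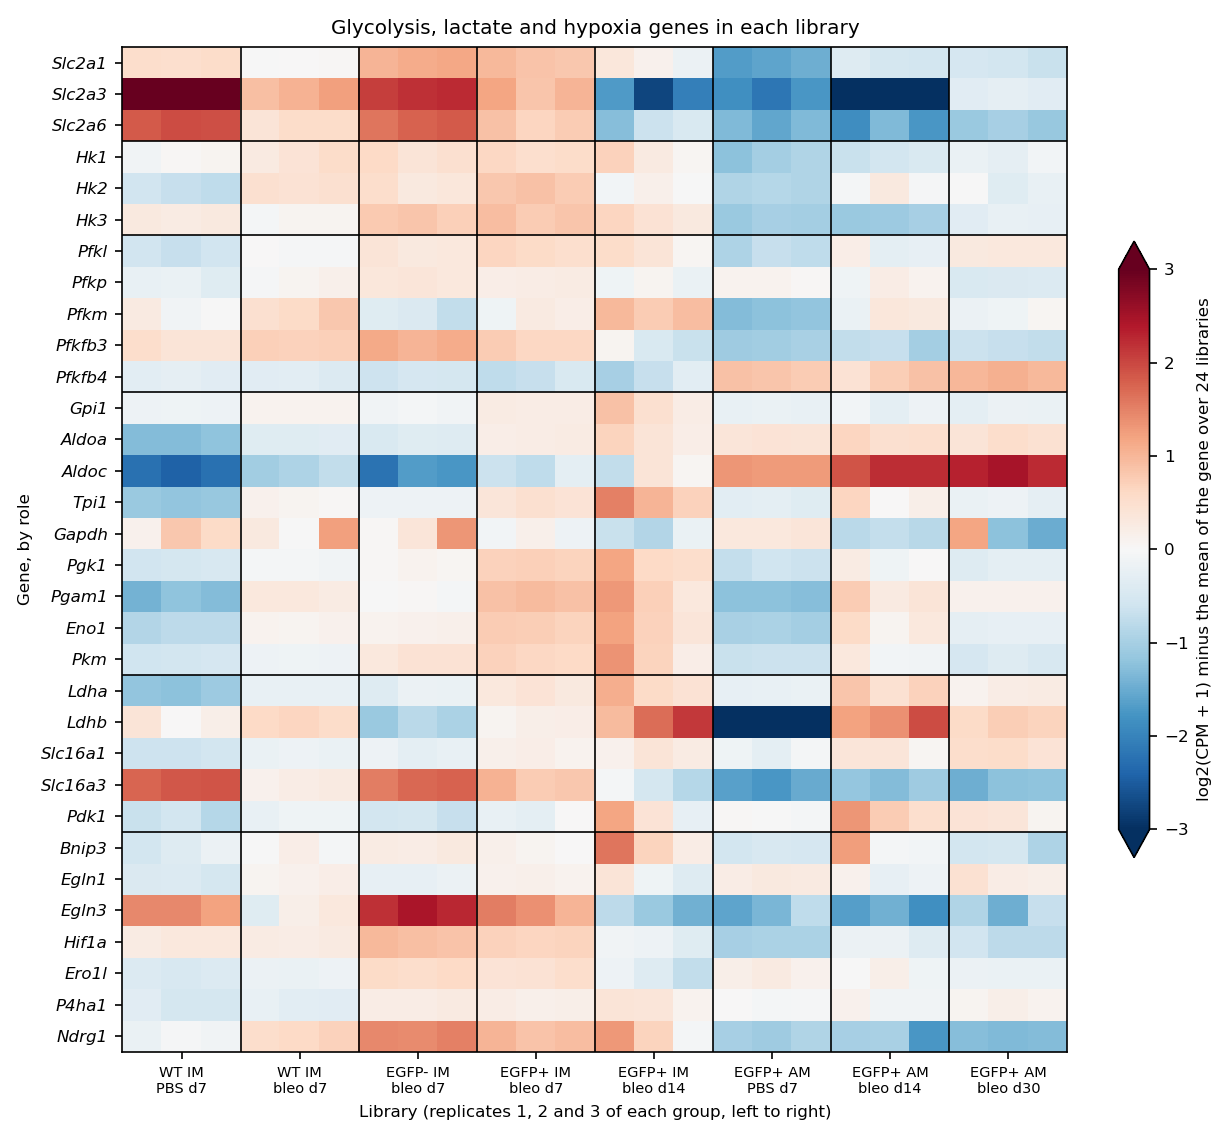
Level of the 32 genes (rows, by role, separated by horizontal lines) in each of the 24 libraries (columns, 3 replicates per group, separated by vertical lines), as log2(CPM + 1) minus the mean of that gene over all libraries, with the colours ending at -3 and 3. Slc2a3 is highest in the wild-type PBS IMs, Ldhb is lowest in the PBS AMs, Aldoc is highest in the AM groups, and replicate 1 of the day 14 IMs is the highest of its group for most glycolytic enzymes.

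Gapdh, which oxidises glyceraldehyde phosphate, had uncertain levels. It was listed at 7.56 to 58.9 CPM, or 3.14 to 9.05 CPM per kb as group means, and was not called in any comparison. The annotation holds 78 near-identical copies of it, 74 of them pseudogenes, and 72.8% to 97.4% of the counts of Gapdh and these copies together were assigned to the copies. It was 25.4, 40.9 and 34.8 CPM in wild-type PBS IMs, 28.4, 23 and 55 CPM in wild-type bleomycin IMs, 23.6, 29.7 and 58.9 CPM in EGFP- IMs, 21.8, 25.7 and 20.6 CPM in EGFP+ IMs at day 7 and 14.1, 12 and 19.9 CPM at day 14. In AMs it was 28.8, 28.9 and 29.96 CPM after PBS, 12.7, 13.7 and 12.6 CPM at day 14 and 53.4, 9.30 and 7.56 CPM at day 30. Replicates of 1 group thus differed widely, and without day 30 replicate 1 Gapdh was lower than in PBS AMs (log2 change -1.67, adjusted p = 1.54e-07). Leaving out replicate 1 of the EGFP- IMs (adjusted p = 0.0411 against EGFP+ IMs) or of the wild-type PBS IMs (adjusted p = 0.00165 against PBS AMs) also turned it into a call. Bnip3, Ndrg1 and Pfkp share sequence with other genes to a lesser degree, with 29.0% to 37.2%, 16.7% to 25.9% and 8.87% to 21.8% of the joint counts on these. For Ndrg1 and Pfkp these were the overlapping opposite-strand genes Gm17035 and Pitrm1. For Bnip3 the overlapping opposite-strand gene Gm45507 held 4148 counts over the 24 libraries, against 51 and 3 on the pseudogenes Gm16439 and Gm9419.

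Promoter windows of Ldha and Ldhb are shown for the core letters of the hypoxia response element, and those of Pgk1 and Bnip3 as 2 of the 21 genes called higher in day 14 AMs. RefSeq windows on GRCm38.p6 run from 250 bases before to 50 after the annotated start, and 30 of the 32 genes had at least 1 such window, 43 windows in all. Both forms of the core, ACGTG and GCGTG, and the E-box CACGTG, which contains ACGTG, were searched on both strands and are in capitals. The E-box reads the same on both strands, so each copy of it adds 2 ACGTG matches. ACGTG was in 55.8% of the windows of these genes and in 19.6% of all 32851 windows, GCGTG in 58.1% and 32.4%, and CACGTG in 14.0% and 7.2%. The median GC content was 63.3% in the windows of these genes and 52.7% in all windows. Ldha has 2 windows. The first (chr7:46845554-46845853, plus strand), printed here, held 5 matches of ACGTG, 4 of them in its 2 E-boxes, and 2 of GCGTG. The second (chr7:46846832-46847131, plus strand) held 0 of ACGTG and 2 of GCGTG, with no E-box. The Ldhb window (chr6:142507908-142508207, minus strand) held 0 of ACGTG and 1 of GCGTG, so it differs in ACGTG from the first Ldha window and not from the second. The Bnip3 window (chr7:138909457-138909756, minus strand) held 2 matches of ACGTG, both in 1 E-box, and 3 of GCGTG. The Pgk1 window (chrX:106186850-106187149, plus strand) held 2 of ACGTG, outside any E-box, and 0 of GCGTG. The windows of Gpi1 and Tpi1, also called higher in day 14 AMs, held 0 of ACGTG and 0 of GCGTG. Slc2a3 and Ndrg1 had no window. A match describes letters and not a bound site.
Ldha: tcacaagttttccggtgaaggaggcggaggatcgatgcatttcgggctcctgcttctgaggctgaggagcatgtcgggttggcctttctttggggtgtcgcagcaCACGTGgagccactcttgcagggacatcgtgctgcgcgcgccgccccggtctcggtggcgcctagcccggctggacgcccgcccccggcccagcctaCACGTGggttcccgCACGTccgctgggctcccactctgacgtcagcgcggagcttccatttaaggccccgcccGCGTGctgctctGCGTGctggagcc
Ldhb: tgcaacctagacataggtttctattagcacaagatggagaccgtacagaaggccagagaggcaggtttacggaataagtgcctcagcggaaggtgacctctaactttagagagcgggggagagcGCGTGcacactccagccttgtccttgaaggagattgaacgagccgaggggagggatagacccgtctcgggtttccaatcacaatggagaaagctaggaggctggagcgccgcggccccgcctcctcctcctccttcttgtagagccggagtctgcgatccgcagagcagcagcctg
Bnip3: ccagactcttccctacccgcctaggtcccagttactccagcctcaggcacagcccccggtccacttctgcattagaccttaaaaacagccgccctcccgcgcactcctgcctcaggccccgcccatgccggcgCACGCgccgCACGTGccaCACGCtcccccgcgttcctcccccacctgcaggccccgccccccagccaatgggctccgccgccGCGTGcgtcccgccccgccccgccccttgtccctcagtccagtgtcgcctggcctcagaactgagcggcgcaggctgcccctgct
Pgk1: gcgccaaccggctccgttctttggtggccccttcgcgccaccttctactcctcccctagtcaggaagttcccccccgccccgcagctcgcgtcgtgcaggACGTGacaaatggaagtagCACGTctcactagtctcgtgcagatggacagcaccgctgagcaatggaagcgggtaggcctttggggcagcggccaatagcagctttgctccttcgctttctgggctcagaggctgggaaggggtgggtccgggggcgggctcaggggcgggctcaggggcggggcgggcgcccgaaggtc

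In wild-type IMs at day 7, bleomycin was set against PBS. Of the 32 genes, 22 were higher after bleomycin and 6 were lower, while 35.6% and 34.5% of the 15496 genes tested were called higher and lower. The median log2 change was 0.36 over the 32 genes and 0.00 over all genes tested. All 3 glucose transporters fell, 8 of the 9 glycolytic enzymes rose, and Ldha and Ldhb both rose. Beside these changes, 8 of 8 B cell markers, 8 of 8 fibroblast markers and 8 of 11 lung epithelial markers were lower after bleomycin and 7 of 7 NK cell markers were higher, and their part was not tested.

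Slc2a1, the widely expressed basal glucose transporter, fell from 221, 218 and 226 CPM after PBS to 152, 154 and 156 CPM (log2 change -0.57 ± 0.05, adjusted p = 4.98e-10). Slc2a3, a high-affinity glucose transporter, fell from 388, 402 and 406 CPM to 62.2, 69 and 78.7 CPM (log2 change -2.56 ± 0.06, adjusted p = 8.38e-19), and Slc2a6, a lysosomal hexose transporter, fell from 274, 296 and 290.1 CPM to 99.8, 111 and 112 CPM (log2 change -1.46 ± 0.06, adjusted p = 1.95e-16). The groups did not overlap for any of the 3 transporters. Hk2, an inducible hexokinase bound to mitochondria, rose from 86.9, 81 and 76.3 CPM to 181, 177 and 183 CPM (log2 change 1.10 ± 0.06, adjusted p = 4.56e-14), whereas Hk3 fell from 108, 104 and 108 CPM to 84.6, 92.8 and 93 CPM (log2 change -0.29 ± 0.06, adjusted p = 9.11e-05). Pfkfb3, a kinase that makes an activator of phosphofructokinase, rose from 187, 171 and 169.8 CPM to 213, 211 and 216 CPM. Of the phosphofructokinase genes, Pfkl, Pfkp, Pfkm and Pfkfb3 were called higher by 0.23 to 0.60 on the log2 scale. Pfkfb4 lay at 78.4, 81.9 and 77.3 CPM after PBS and 77.6, 78.5 and 73.4 CPM after bleomycin and was not called (adjusted p = 0.16).

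Among the enzymes, Pgam1, phosphoglycerate mutase, rose most beside Aldoc, from 73.1, 84.9 and 79.4 CPM to 245, 245 and 236 CPM (log2 change 1.56 ± 0.06, adjusted p = 1.98e-16). Tpi1, triosephosphate isomerase, rose from 82.2, 77.9 and 81.7 CPM to 195, 189 and 185 CPM (log2 change 1.19 ± 0.05, adjusted p = 6.53e-15). Eno1, enolase, rose from 415, 444 and 443 CPM to 822, 811 and 834 CPM (log2 change 0.88 ± 0.05, adjusted p = 1.83e-13). Aldoa rose from 352, 349 and 377 CPM to 671, 668 and 680.5 CPM (log2 change 0.86 ± 0.05, adjusted p = 3.04e-13). For all 4 enzymes every bleomycin library lay above every PBS library. Pkm rose by a smaller amount, from 891, 909 and 946 CPM to 1199, 1219 and 1199 CPM (log2 change 0.35 ± 0.05, adjusted p = 5.03e-07). The aldolase Aldoc rose from 4.29, 3.67 and 4.29 CPM to 11.2, 12.3 and 14 CPM (log2 change 1.57 ± 0.15, adjusted p = 4.49e-09).

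Ldha, the subunit favoured in glycolytic cells, rose from 269, 259 and 287 CPM to 526, 526 and 521 CPM (log2 change 0.90 ± 0.05, adjusted p = 2.39e-13), and the lactate exporter Slc16a3 fell from 882, 953 and 966 CPM to 286, 305 and 313 CPM (log2 change -1.68 ± 0.05, adjusted p = 6.68e-18). Pdk1, which inhibits pyruvate dehydrogenase, rose from 20.8, 22.6 and 18.2 CPM to 28.6, 30.4 and 30.7 CPM (log2 change 0.50 ± 0.09, adjusted p = 5.12e-05). In the hypoxia pathway Bnip3, Egln1, Ero1l and Ndrg1 were called higher, Egln3 fell from 15.1, 15.2 and 12.7 CPM to 3.63, 5.71 and 6.33 CPM (log2 change -1.50 ± 0.16, adjusted p = 3.25e-08), and Hif1a at 312, 330.3 and 329.6 CPM and 315, 311 and 320.5 CPM was not called (adjusted p = 0.128). Ndrg1, a stress-responsive gene, rose from 53.8, 60.4 and 57.7 CPM to 89.8, 94.1 and 99.9 CPM (log2 change 0.68 ± 0.06, adjusted p = 2e-09). P4ha1, a collagen prolyl hydroxylase subunit, was not called (adjusted p = 0.0811) but became a call without bleomycin replicate 3 (adjusted p = 0.0323) or PBS replicate 1 (adjusted p = 0.015). When all 24 libraries shared a fit, the calls of Bnip3, Ero1l, Gpi1, Ldhb, Pdk1, Pfkfb3 and Pkm were lost (adjusted p from 0.0568 to 0.359).

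In reporter mice at day 7 after bleomycin, EGFP+ IMs were set against EGFP- IMs from the same gate and table. EGFP+ cells had 11 of the 32 genes higher and 6 lower, with 17.2% and 17.6% of all 14967 genes called higher and lower. Their median log2 change was 0.11, against -0.02 over all genes. Of the 9 glycolytic enzymes 6 were higher and 0 lower, while Slc2a3, Slc2a6, Slc16a3, Egln3, Hif1a and Pfkfb3 were the 6 lower genes. The fit also held the day 14 IMs of the other table. With only the 2 groups compared, 16 of the 32 genes were higher and 8 lower, and 4064 and 3623 of 14593 genes were called higher and lower in place of 2571 and 2635 of 14967. The added calls were Gpi1, Pfkl, Pkm, Pdk1 and Egln1, higher, and Slc2a1 and Ndrg1, lower (adjusted p from 2.51e-06 to 0.0109). EGFP+ cells also had 6 of the 9 tested alveolar macrophage markers higher and 0 lower (median log2 change 1.6), while 4 of 8 dendritic cell markers and 7 of 12 dissociation stress genes were lower. Their part was not tested.

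Ldha was 471, 539 and 533 CPM in EGFP- cells and 763, 809.6 and 749 CPM in EGFP+ cells (log2 change 0.54 ± 0.13, adjusted p = 0.00852), and Pgam1 was 195, 204 and 190.1 CPM and 365, 380.3 and 362 CPM (log2 change 0.86 ± 0.16, adjusted p = 0.00214). Aldoa was 635, 669 and 659 CPM in EGFP- cells and 1001, 1012 and 1026 CPM in EGFP+ cells (log2 change 0.58 ± 0.10, adjusted p = 0.00153). Pgk1, phosphoglycerate kinase, was 232, 244 and 233 CPM and 367, 372 and 356 CPM (log2 change 0.58 ± 0.12, adjusted p = 0.00427). In each of these 4 genes the EGFP+ libraries were the higher ones without overlap. Aldoc was also higher, at 4.41, 6.86 and 6.48 CPM and 15, 13.7 and 19.5 CPM (log2 change 1.38 ± 0.33, adjusted p = 0.011). Ldhb was 10.3, 12.8 and 11.7 CPM in EGFP- cells and 24.7, 26.6 and 27 CPM in EGFP+ cells (log2 change 1.12 ± 0.30, adjusted p = 0.0211).

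Slc2a3 was 143, 155 and 159 CPM in EGFP- cells and 76.7, 59.8 and 68.3 CPM in EGFP+ cells (log2 change -1.21 ± 0.19, adjusted p = 0.00111). Slc16a3 was 753, 859 and 889 CPM and 538, 441 and 457 CPM (log2 change -0.85 ± 0.15, adjusted p = 0.00156). Egln3 was 26.1, 31.4 and 27.2 CPM and 16.3, 14.4 and 11 CPM (log2 change -1.07 ± 0.18, adjusted p = 0.000953), and Slc2a6 was 234, 258 and 276 CPM and 140.3, 119.6 and 129.6 CPM (log2 change -1.03 ± 0.21, adjusted p = 0.00485). These 4 genes were lower in every EGFP+ library than in any EGFP- library. Slc2a1 lay at 312, 334 and 344 CPM and 302, 279 and 266 CPM and was not called (adjusted p = 0.0696). Pkm at 1660.0, 1795 and 1797 CPM and 2176, 2055 and 2032 CPM did not overlap, with the EGFP+ libraries higher, but was not called (adjusted p = 0.439, or 0.00568 with only the 2 groups compared). Hk2 was 189.6, 161 and 165 CPM and 229, 242 and 222 CPM (log2 change 0.38 ± 0.11, adjusted p = 0.0167), Pfkfb3 was 286, 264 and 280.1 CPM and 221, 199 and 199 CPM (log2 change -0.47 ± 0.13, adjusted p = 0.0156), and Hif1a was 524, 499 and 481 CPM and 426, 415 and 419 CPM (log2 change -0.30 ± 0.09, adjusted p = 0.0165). Pdk1 at 22.6, 23 and 20.5 CPM and 28.4, 27.4 and 33.7 CPM (adjusted p = 0.292) and Hk3 at 152, 157 and 144 CPM and 167, 149 and 157 CPM (adjusted p = 0.895) were not called. Leaving out any 1 of these 6 libraries ended at least 1 call among Eno1, Hif1a, Hk2, Ldhb, Pfkfb3, Pfkm and Slc16a1 (adjusted p from 0.0515 to 0.0886). Scaling to the total count ended the calls of Pfkfb3 and Hif1a (adjusted p of 0.0524 and 0.0552). The number of higher genes was 6 without EGFP+ replicate 2 and 7 without EGFP- replicate 3, while higher calls over all genes went from 2571 of 14967 to 1670 of 15386 and 1804 of 15226.

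Between day 7 and day 14, EGFP+ IMs showed changes in both directions. Of the 32 genes, 11 were higher at day 14 and 9 lower, with 25.3% and 26.9% of all 14967 genes called higher and lower. Their median log2 change was 0.10, against 0.00 over all genes. All 3 glucose transporters, Hk2, Pfkfb3, Slc16a3, Egln3, Hif1a and Ero1l fell, and the genes that rose included Tpi1, Ldha, Ldhb, Pdk1 and Bnip3. With scaling to the total count the median of all genes moved to -0.22, the calls over all genes shifted from 3781 higher and 4025 lower to 2063 higher and 5367 lower, and 5 members were higher and 11 lower. Among the 23 genes with unchanged models and neighbours, 8 were higher and 6 lower. Of 11 mitochondrially encoded transcripts 10 were higher at day 14, and of 13 cell cycle genes 10 were lower. Also lower were 8 of 8 dendritic cell markers (median log2 change -2.35), 6 of 7 NK cell markers, 5 of 8 B cell markers and 9 of 11 lung epithelial markers. The part of these genes was not tested.

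Slc2a3 fell from 76.7, 59.8 and 68.3 CPM at day 7 to 9.58, 4.02 and 7.26 CPM at day 14 (log2 change -3.09 ± 0.22, adjusted p = 3e-06), and Slc2a1 fell from 302, 279 and 266 CPM to 193, 168 and 136 CPM (log2 change -0.56 ± 0.11, adjusted p = 0.00131). Slc2a6 fell from 140.3, 119.6 and 129.6 CPM to 30.4, 48.3 and 54.9 CPM (log2 change -1.3 ± 0.22, adjusted p = 0.000788). The days did not overlap for any transporter. Pfkfb3 fell from 221, 199 and 199 CPM to 138, 94.5 and 81.7 CPM (log2 change -0.77 ± 0.13, adjusted p = 0.00049). Hk2 fell from 229, 242 and 222 CPM to 122, 146 and 130.0 CPM (log2 change -0.57 ± 0.11, adjusted p = 0.000962). Slc16a3 fell from 538, 441 and 457 CPM to 250.3, 180.1 and 145 CPM (log2 change -1.11 ± 0.16, adjusted p = 0.000119). In the later table its span overlaps that of the opposite-strand gene Csnk1d, which was not so in the earlier table.

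Tpi1 rose from 231, 249 and 241 CPM to 511, 362 and 288 CPM (log2 change 0.89 ± 0.14, adjusted p = 0.000221), and Ldha rose from 763, 809.6 and 749 CPM to 1295, 915 and 822 CPM (log2 change 0.59 ± 0.13, adjusted p = 0.00272). Ldhb rose from 24.7, 26.6 and 27 CPM to 45.9, 76.9 and 104 CPM (log2 change 1.78 ± 0.29, adjusted p = 0.000939). In these 3 genes the lowest day 14 library still exceeded the highest day 7 library. Bnip3, a mitophagy receptor, rose from 24.1, 23.1 and 21.8 CPM to 68, 35.4 and 25.6 CPM (log2 change 1.09 ± 0.26, adjusted p = 0.0061), and Pdk1 was 28.4, 27.4 and 33.7 CPM and 77, 45.3 and 28.3 CPM with overlap between the days (log2 change 0.95 ± 0.26, adjusted p = 0.0134). Egln3 fell from 16.3, 14.4 and 11 CPM to 2.43, 1.72 and 1.17 CPM (log2 change -2.77 ± 0.23, adjusted p = 2.36e-06), and Hif1a fell from 426, 415 and 419 CPM to 246, 238 and 207 CPM (log2 change -0.65 ± 0.09, adjusted p = 8.41e-05). Ero1l, an oxidase of disulfide bond formation in the endoplasmic reticulum, fell from 92.8, 93.1 and 99.4 CPM to 61.8, 52.4 and 41.1 CPM (log2 change -0.66 ± 0.10, adjusted p = 0.000248). Pfkm was 4.68, 6.46 and 6.02 CPM and 11.1, 9.51 and 10.8 CPM (log2 change 1.10 ± 0.18, adjusted p = 0.000325), with different gene models in the 2 tables. Gpi1, Aldoa, Pgk1, Slc16a1 and P4ha1 were called higher with overlapping replicates, and Gpi1 and Aldoa lie outside the 23 genes with unchanged models and neighbours. Pkm at 2176, 2055 and 2032 CPM and 3390.0, 2135 and 1536 CPM (adjusted p = 0.125) and Hk3 at 167, 149 and 157 CPM and 138, 119 and 108 CPM (adjusted p = 0.138) were not called.

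Calls between the days also turned on single libraries. The call of Pgk1 was lost without day 14 replicate 1 (adjusted p = 0.185) or any 1 day 7 library (adjusted p from 0.0911 to 0.136), and that of Slc16a1 without day 14 replicate 2 or 3 or day 7 replicate 3 (adjusted p from 0.0511 to 0.103). Without day 14 replicate 1, Hk3 was called lower and Pfkfb4 and Aldoc higher (adjusted p from 0.000104 to 0.0335), and without day 14 replicate 3, Eno1 and Pkm were called higher (adjusted p of 0.0132 and 0.00594). Scaling to the total count ended the calls of Aldoa, Gpi1, P4ha1, Pdk1, Pgk1 and Slc16a1 (adjusted p from 0.0663 to 0.564).

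In EGFP+ AMs, day 14 after bleomycin was set against day 7 after PBS. Of the 32 genes, 21 were higher after bleomycin and 1, Slc2a3, was lower, while 27.3% and 27.6% of all 14706 genes were called higher and lower. At -0.01, the median log2 change over all genes lay below the 0.67 of the 32 genes. The higher genes held 8 of 9 glycolytic enzymes and all 5 lactate and pyruvate genes, 3 of 5 phosphofructokinase genes, 2 of 3 hexokinases, Slc2a1, Bnip3 and Hif1a. Among the 23 genes with unchanged models and neighbours, 15 were higher and 1 lower. Beside these changes, 8 of 8 B cell markers, 6 of 8 dendritic cell markers and 8 of 10 lung epithelial markers tested were lower than after PBS. Of 10 alveolar macrophage markers 6 were lower and 1 higher. Of 10 interstitial macrophage and monocyte markers 5 were higher and 1 lower, and of 7 macrophage markers 6 were higher and 1 lower. The part of all these markers was not tested.

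Slc2a1 rose from 47.3, 50.4 and 54.3 CPM in PBS AMs to 117, 105 and 105 CPM (log2 change 1.29 ± 0.08, adjusted p = 1.58e-09), while Slc2a3 went from 8.56, 6.63 and 9.11 CPM to 2.90, 2.53 and 1.49 CPM (log2 change -1.63 ± 0.20, adjusted p = 3.5e-06). The day 14 level of Slc2a3 rests on 43, 34 and 23 counts. Slc2a3 overlaps the same-strand pseudogene Gm4482, which took up to 37.8% of the counts of both in the later table and up to 16.0% in the earlier. Hk2 rose from 69.6, 72 and 69.3 CPM to 125, 159 and 127 CPM (log2 change 1.14 ± 0.10, adjusted p = 4.05e-08). Pfkl, the liver-type phosphofructokinase, rose from 38.2, 45.4 and 42.9 CPM to 84.6, 60.7 and 61.8 CPM (log2 change 0.90 ± 0.11, adjusted p = 4.68e-06). For these 4 genes the groups did not overlap. Pgam1 rose from 83.4, 84 and 81.3 CPM to 333, 238 and 260.2 CPM (log2 change 1.93 ± 0.10, adjusted p = 1.37e-10), and Eno1 rose from 384, 393 and 377 CPM to 1136, 806 and 954 CPM (log2 change 1.51 ± 0.10, adjusted p = 2.3e-09). Pkm rose from 836, 861 and 859.7 CPM to 1666, 1265 and 1247 CPM (log2 change 0.89 ± 0.10, adjusted p = 7.43e-07), and Pgk1 rose from 137, 149 and 145 CPM to 269, 207 and 228 CPM (log2 change 0.90 ± 0.09, adjusted p = 4.24e-07). Every day 14 library exceeded every PBS library in these 4 enzymes, but Pgam1 had different gene models in the 2 tables.

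Hk1, Tpi1 and Aldoc rose by 0.69, 0.82 and 1.02 on the log2 scale, also without overlap. Pfkfb3 was 61.3, 62.8 and 65.2 CPM and 77.8, 80.00 and 63.3 CPM, with overlap (log2 change 0.41 ± 0.08, adjusted p = 0.0006).

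Both lactate carriers rose in AMs. Slc16a1 went from 37.9, 33.7 and 39.7 CPM after PBS to 53.5, 53.9 and 43.3 CPM at day 14 (log2 change 0.62 ± 0.10, adjusted p = 3.69e-05) and 60.1, 61.3 and 55.4 CPM at day 30 (log2 change 0.78 ± 0.09, adjusted p = 3.23e-06), and Slc16a3 from 83.9, 76.7 and 90.03 CPM to 117, 106 and 124 CPM (log2 change 0.65 ± 0.10, adjusted p = 2.51e-05) and 93.4, 110.5 and 113 CPM (log2 change 0.45 ± 0.10, adjusted p = 0.000963). Neither carrier overlapped with PBS at day 14 or at day 30, although the Csnk1d overlap of Slc16a3 is in the bleomycin libraries' table only. Egln3 was low in AMs, at 0.966, 1.3 and 2.52 CPM after PBS, 0.876, 1.19 and 0.647 CPM at day 14 and 2.19, 1.15 and 2.70 CPM at day 30, and was not called between any of these groups (adjusted p from 0.0662 to 0.36).

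Ldha rose from 515, 521 and 533 CPM to 1091, 848 and 988 CPM (log2 change 1.09 ± 0.09, adjusted p = 3.31e-08), and Pdk1 rose from 34.6, 33.5 and 32.1 CPM to 86.1, 57.9 and 47.9 CPM (log2 change 1.12 ± 0.17, adjusted p = 0.000192). Hif1a rose from 133, 137 and 138 CPM to 234, 235 and 203 CPM (log2 change 0.91 ± 0.08, adjusted p = 5.55e-08), without overlap. Bnip3 rose from 14.4, 15.3 and 15 CPM to 52.9, 20.7 and 20.5 CPM (log2 change 1.26 ± 0.37, adjusted p = 0.0208), with replicate 1 far above the others. Its call was lost when any 1 PBS library was left out (adjusted p from 0.0592 to 0.0676), and that of Gpi1 without PBS replicate 1 or 3 (adjusted p of 0.0609 and 0.0547). Without day 14 replicate 1, Egln1 was called lower (adjusted p = 0.025), which made 2 lower genes, and Pfkp higher (adjusted p = 0.0022). Without day 14 replicate 2, P4ha1 was called higher (adjusted p = 0.0174). With scaling to the total count the median of all genes moved to -0.20, calls over all genes went from 4008 higher and 4060 lower to 2641 higher and 5570 lower, and 19 members were higher and 2 lower, with the calls of Gpi1 and Aldoa lost (adjusted p of 0.608 and 0.0651).

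**Figure D2:**
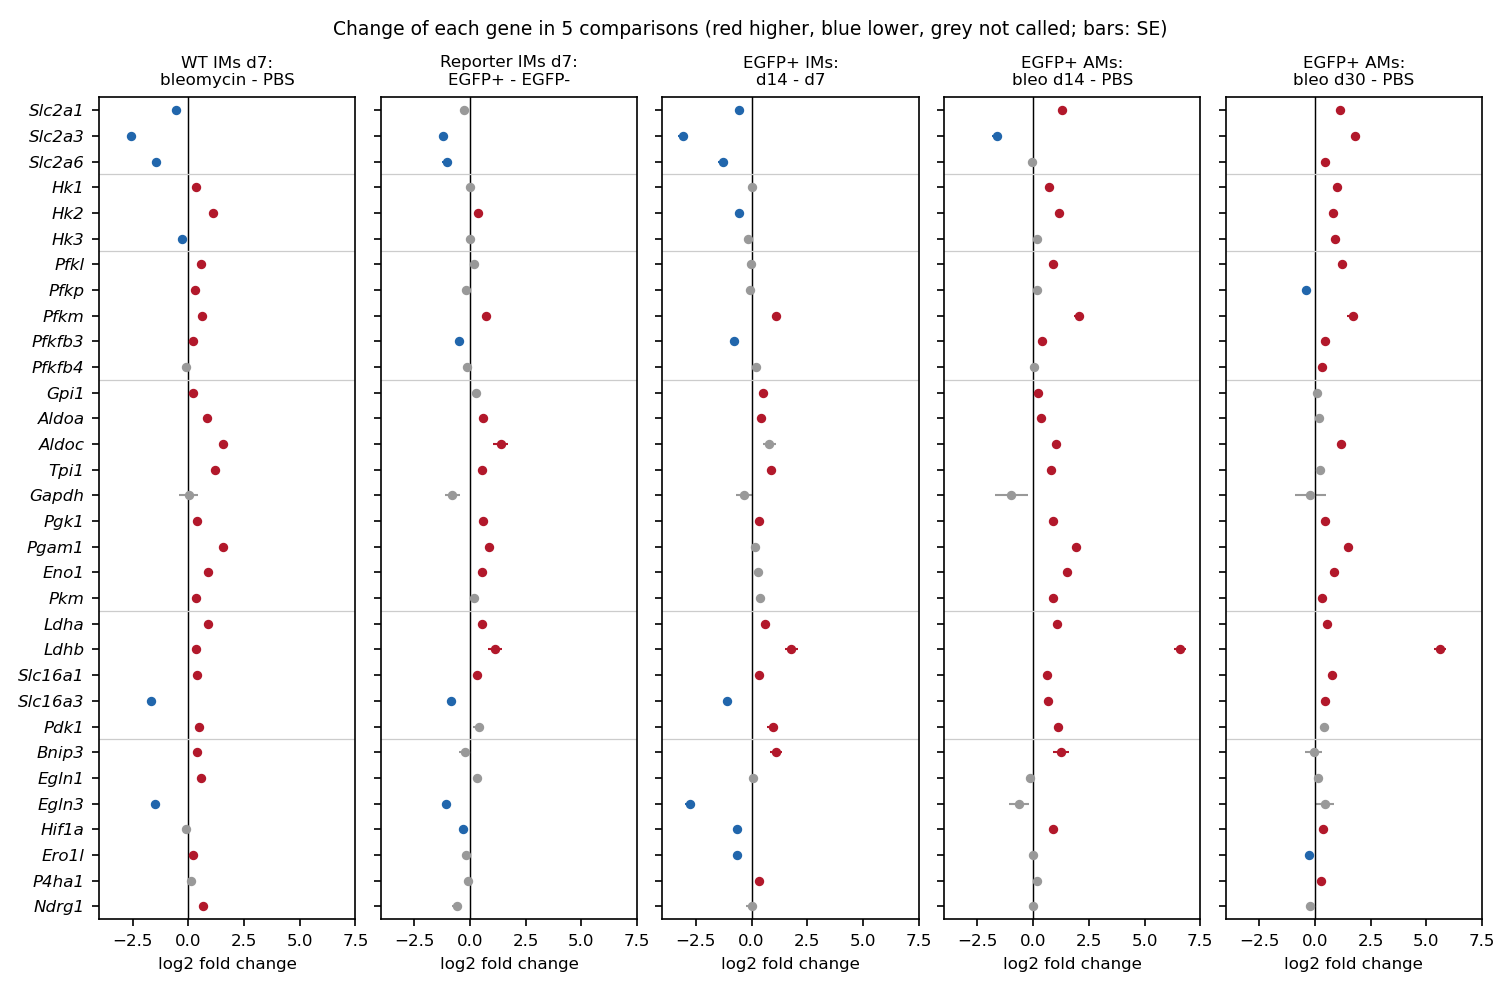
Log2 fold change (x axis, bars are SE) of each of the 32 genes (y axis, by role) in the wild-type IM, reporter IM and AM comparisons named above each panel, with calls at an adjusted p under 0.05 in red (higher) or blue (lower). The transporters fall in the 3 IM panels, except that Slc2a1 was not called between EGFP+ and EGFP- IMs, most enzymes lie right of 0 in the AM panels, and Ldhb at 6.59 and 5.60 is the largest change of the AM panels.

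At day 30 the EGFP+ AMs had 21 genes higher than the PBS AMs and 2, Pfkp and Ero1l, lower, while 24.8% and 23.1% of all 14706 genes were called higher and lower. The median log2 change was 0.45 over the 32 genes and 0.02 over all genes. All 3 glucose transporters, all 3 hexokinases and 4 of 5 phosphofructokinase genes were higher, with 5 of 9 glycolytic enzymes and 4 of 5 lactate and pyruvate genes. Among the 23 genes with unchanged models and neighbours, 17 were higher and 0 lower, since both lower genes lie outside that set. Beside these changes, 8 of 8 T cell markers (median log2 change 1.49) and 7 of 7 fibroblast markers tested (median log2 change 2.45) were also higher at day 30, and 6 of 10 lung epithelial markers tested were lower. Of 10 alveolar macrophage markers 5 were lower and 1 higher. Of 10 interstitial macrophage and monocyte markers 6 were higher and 0 lower, and of 7 macrophage markers 4 were higher and 2 lower. The part of all these markers was not tested. Both AM comparisons share the PBS libraries.

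Slc2a1 was 108, 104 and 95.2 CPM at day 30 (log2 change 1.13 ± 0.08, adjusted p = 9.25e-09) and Slc2a3 was 25.8, 27.4 and 25.8 CPM (log2 change 1.82 ± 0.16, adjusted p = 6.49e-08), against the PBS values above. Hk1, the constitutive hexokinase, rose from 21.4, 25 and 26.9 CPM to 44.9, 42.7 and 48.2 CPM (log2 change 1.01 ± 0.10, adjusted p = 4.44e-07), and Hk3 rose from 40.3, 43.7 and 42.9 CPM to 69.3, 74.6 and 73.9 CPM (log2 change 0.89 ± 0.08, adjusted p = 1.06e-07). Pfkl rose to 90.7, 92.9 and 92.5 CPM (log2 change 1.24 ± 0.11, adjusted p = 1.07e-07). Hk2 rose to 129, 102 and 111 CPM (log2 change 0.81 ± 0.10, adjusted p = 2.85e-06), and Aldoc rose to 122, 138 and 117 CPM (log2 change 1.18 ± 0.10, adjusted p = 2.95e-08). In all 7 genes the day 30 libraries lay above the PBS libraries. Pgam1 at 216, 215 and 215 CPM (log2 change 1.49 ± 0.10, adjusted p = 3.39e-09) and Eno1 at 627, 646 and 646 CPM (log2 change 0.85 ± 0.10, adjusted p = 2.78e-06) were also above PBS in every library. Tpi1 at 144, 147 and 139 CPM after PBS and 156, 161 and 148 CPM at day 30 was not called (adjusted p = 0.167). Hif1a was 177, 154 and 154 CPM (log2 change 0.37 ± 0.08, adjusted p = 0.00097) and Pfkfb3 was 82.2, 80.1 and 77.3 CPM (log2 change 0.45 ± 0.08, adjusted p = 0.000258), both higher than after PBS. Pdk1 at 44.6, 43.6 and 35.8 CPM was not called (adjusted p = 0.0672). Bnip3 lay at 14.4, 14.7 and 11 CPM, against 14.4, 15.3 and 15 CPM after PBS, and was not called (adjusted p = 0.939).

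Without day 30 replicate 2 the calls of P4ha1, Pfkfb4 and Pkm were lost (adjusted p from 0.0546 to 0.0705). Without PBS replicate 2 those of P4ha1 and Ero1l were lost (adjusted p of 0.0557 and 0.0508), which left 1 lower gene, and without PBS replicate 3 that of Pfkfb4 was lost (adjusted p = 0.0709). Without day 30 replicate 1 Aldoa was called higher (adjusted p = 0.0481), and without day 30 replicate 3 Pdk1 was called higher (adjusted p = 0.0454). Scaling to the total count gave 2800 higher and 4365 lower calls over all genes in place of 3649 and 3401, and 18 members higher and 2 lower, with the calls of Pkm, Pfkfb4 and P4ha1 lost (adjusted p from 0.0893 to 0.133).

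Day 30 and day 14 AMs lie in the same table and were set directly against each other. The fit also held the PBS AMs of the other table. Day 30 AMs had 6 genes higher and 13 lower than day 14 AMs, while 19.6% and 18.7% of all 14706 genes were called higher and lower. Their median log2 change was -0.17, against 0.01 over all genes. The lower genes held 5 of 9 glycolytic enzymes (Tpi1, Pgk1, Pgam1, Eno1 and Pkm), Ldha, Ldhb and Pdk1, and Bnip3, Hif1a and Ero1l. The higher genes were Slc2a3, Slc2a6, Hk1, Hk3, Pfkl and Egln1. Eno1 fell from 1136, 806 and 954 CPM at day 14 to 627, 646 and 646 CPM at day 30 (log2 change -0.67 ± 0.10, adjusted p = 6.85e-05), and Ldha fell to 657, 718 and 722 CPM (log2 change -0.55 ± 0.09, adjusted p = 0.00014). Pkm fell to 944, 1025 and 966 CPM (log2 change -0.58 ± 0.10, adjusted p = 0.000164). Hk3 rose from 40.2, 40.5 and 43.3 CPM to 69.3, 74.6 and 73.9 CPM (log2 change 0.74 ± 0.08, adjusted p = 2.98e-06), and Slc2a3 rose from 2.90, 2.53 and 1.49 CPM to 25.8, 27.4 and 25.8 CPM (log2 change 3.45 ± 0.19, adjusted p = 7.65e-10). None of these 5 genes overlapped between the days, though the day 14 level of Slc2a3 rests on 43, 34 and 23 counts. Tpi1 fell by 0.59, Pdk1 by 0.70 and Bnip3 by 1.3 on the log2 scale, from the values already given. Hk2 fell by 0.33 with overlapping replicates, and Pfkfb3 and Slc16a3 were not called (adjusted p of 0.692 and 0.109).

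Leaving out day 14 replicate 2 ended the calls of Egln1, Hk1 and Pfkl (adjusted p from 0.0517 to 0.123), which left 3 higher genes, and made Gpi1, Aldoa and Slc16a3 lower (adjusted p from 0.0187 to 0.022). Without day 14 replicate 1 the call of Hk1 was lost (adjusted p = 0.0687), and without day 14 replicate 3 those of Egln1 and Pfkl (adjusted p of 0.0858 and 0.0936) were lost while Pfkfb4 became higher and Ndrg1 lower (adjusted p of 0.00502 and 0.00624). The call of Bnip3 was lost without any 1 day 30 library (adjusted p from 0.063 to 0.0866). The same libraries also bore on Pfkl (adjusted p from 0.0502 to 0.0666), while day 30 replicate 1 bore on Egln1 (adjusted p = 0.16), replicate 2 on Hk2 (adjusted p = 0.0704) and on Egln3, which became higher (adjusted p = 0.0312), and replicate 3 on Hk1 (adjusted p = 0.101). With only the 2 groups compared, 5 members were higher, and the calls of Egln1 and Bnip3 were lost (adjusted p of 0.0622 and 0.0918). That fit called 2361 genes higher and 2209 lower of 13915. Scaling to the total count gave 3409 higher and 2052 lower calls over all genes in place of 2887 and 2753, and 7 members higher and 11 lower, with the calls of Hk2 and Ero1l lost (adjusted p of 0.0515 and 0.0672). Beside these changes, 9 of 10 neutrophil markers, 8 of 8 B cell markers, 8 of 8 T cell markers and 7 of 7 fibroblast markers were higher at day 30 than at day 14, and 10 of 12 mitochondrially encoded transcripts were lower. Their part was not tested.

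At day 14 the EGFP+ IMs and AMs, which share genotype, treatment, reporter gate and table, were compared directly. IMs had 15 of the 32 genes higher and 2, Aldoc and Pfkfb4, lower, while 10.8% and 10.2% of all 13460 genes were called higher and lower. The median log2 change was 0.54 over the 32 genes and 0.01 over all genes. All 3 glucose transporters, Hk1, Hk3, 3 of 5 phosphofructokinase genes, and Gpi1, Tpi1, Pgk1 and Pkm were higher in IMs, as were Slc16a3, P4ha1 and Ndrg1. Of 8 neutrophil markers tested, 5 were higher in IMs and 0 lower (median log2 change 3.48), and of 13 cell cycle genes 11 were lower in IMs. Their part was not tested. In the labels these libraries carry numbers 1 to 3 in both gates, and same-numbered libraries deviated together. The counts and changes given for this comparison are from the fit without a block. With the number as a block, Bnip3 (adjusted p = 0.00932), Eno1 (adjusted p = 0.0268) and Pgam1 (adjusted p = 0.0416) were also called higher.

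Hk3 was 138, 119 and 108 CPM in IMs and 40.2, 40.5 and 43.3 CPM in AMs (log2 change 1.66 ± 0.12, adjusted p = 8.04e-06), and Hk1 was 82.9, 61.6 and 53.7 CPM and 32.1, 34.5 and 37.3 CPM (log2 change 1.03 ± 0.15, adjusted p = 0.000651). Ndrg1 was 155, 99.5 and 59.7 CPM in IMs and 30.7, 31.3 and 17.7 CPM in AMs (log2 change 2.07 ± 0.34, adjusted p = 0.0048). Tpi1 was 511, 362 and 288 CPM and 282, 179.9 and 204 CPM (log2 change 0.90 ± 0.21, adjusted p = 0.013). These 4 genes did not overlap between the gates. Slc2a6 was 30.4, 48.3 and 54.9 CPM and 20.2, 29.4 and 22 CPM (log2 change 1.04 ± 0.26, adjusted p = 0.0203), Slc16a3 was 250.3, 180.1 and 145 CPM and 117, 106 and 124 CPM (log2 change 0.83 ± 0.17, adjusted p = 0.00518), and Pfkfb3 was 138, 94.5 and 81.7 CPM and 77.8, 80.00 and 63.3 CPM (log2 change 0.61 ± 0.16, adjusted p = 0.0218). Gpi1, glucose phosphate isomerase, was 805, 608 and 513 CPM and 416, 357 and 394 CPM (log2 change 0.83 ± 0.16, adjusted p = 0.00471), and Pgk1 was 514, 340.2 and 327 CPM and 269, 207 and 228 CPM (log2 change 0.84 ± 0.17, adjusted p = 0.00594). None of these 5 overlapped, whereas Pkm at 3390.0, 2135 and 1536 CPM and 1666, 1265 and 1247 CPM did (log2 change 0.85 ± 0.24, adjusted p = 0.0321). Pfkm was 11.1, 9.51 and 10.8 CPM and 4.38, 6.84 and 6.54 CPM (log2 change 0.94 ± 0.21, adjusted p = 0.0103). Slc2a1 and Slc2a3 were higher by 0.71 and 1.70 on the log2 scale, with only 43, 34 and 23 counts of Slc2a3 in AMs.

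Aldoc was 14, 31.9 and 25 CPM in IMs and 90.8, 114 and 116 CPM in AMs (log2 change -2.04 ± 0.31, adjusted p = 0.00286), and Pfkfb4 was 48.4, 60.00 and 78.6 CPM and 134, 165 and 180.2 CPM (log2 change -1.23 ± 0.22, adjusted p = 0.00356). Both were lower in every IM library. Ldha at 1295, 915 and 822 CPM and 1091, 848 and 988 CPM (adjusted p = 0.613) and Hk2 at 122, 146 and 130.0 CPM and 125, 159 and 127 CPM (adjusted p = 0.747) were not called.

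Without AM replicate 3 the number of higher genes was 9, and higher calls over all genes went from 1454 of 13460 to 980 of 13784, with the calls of P4ha1, Pfkfb3, Pfkl, Pkm, Slc2a6 and Tpi1 lost (adjusted p from 0.0617 to 0.132). Without AM replicate 2 those of P4ha1, Pfkfb3, Pfkl, Pkm and Tpi1 were lost, without AM replicate 1 those of Pfkfb3 and Slc2a6, and without IM replicate 2 those of P4ha1, Pfkl, Pkm and Slc2a6 (adjusted p from 0.0534 to 0.143 over these refits). Without IM replicate 1 Ero1l became lower (adjusted p = 0.0471), and without IM replicate 3 Pgam1 and Eno1 became higher (adjusted p of 0.0401 and 0.0304). Scaling to the total count moved the median of all genes to -0.11, gave 1110 higher and 1785 lower calls over all genes in place of 1454 and 1378, and left 11 members higher and 2 lower, with the calls of Pfkl, Pfkfb3, Pkm and P4ha1 lost (adjusted p from 0.0681 to 0.142).

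Replicate 1 of the day 14 libraries was the highest for many of these genes in both gates, a pattern noticed after the values were seen. Among the 32 genes, 15 had their highest CPM in replicate 1 of the IMs and in replicate 1 of the AMs, against 23.4% of all 13460 genes. With TMM factors the number was again 15, with Ndrg1 in place of P4ha1, against 17.9% of genes. The 15 genes by CPM were Slc2a1, Slc2a3, Pfkl, Gpi1, Aldoa, Tpi1, Pgk1, Pgam1, Eno1, Pkm, Ldha, Pdk1, Bnip3, Egln1 and P4ha1, which include 7 of the 9 glycolytic enzymes. Bnip3 was 68, 35.4 and 25.6 CPM in IMs and 52.9, 20.7 and 20.5 CPM in AMs, and Pdk1 was 77, 45.3 and 28.3 CPM and 86.1, 57.9 and 47.9 CPM. Ldhb and Pfkfb4 had their highest CPM in replicate 3 of both gates. The summed level of 7 macrophage markers was 18922, 40060 and 52726 CPM in the IMs and 38104, 42475 and 48957 CPM in the AMs, so replicate 1 was the lowest of each gate, and the part of these markers in the pattern was not tested. Without replicate 1 of both gates together, 16 genes were higher in IMs and 2 lower. Over all genes that fit called 1661 higher and 1490 lower of 13634, in place of 1454 and 1378 of 13460.

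**Figure D3:**
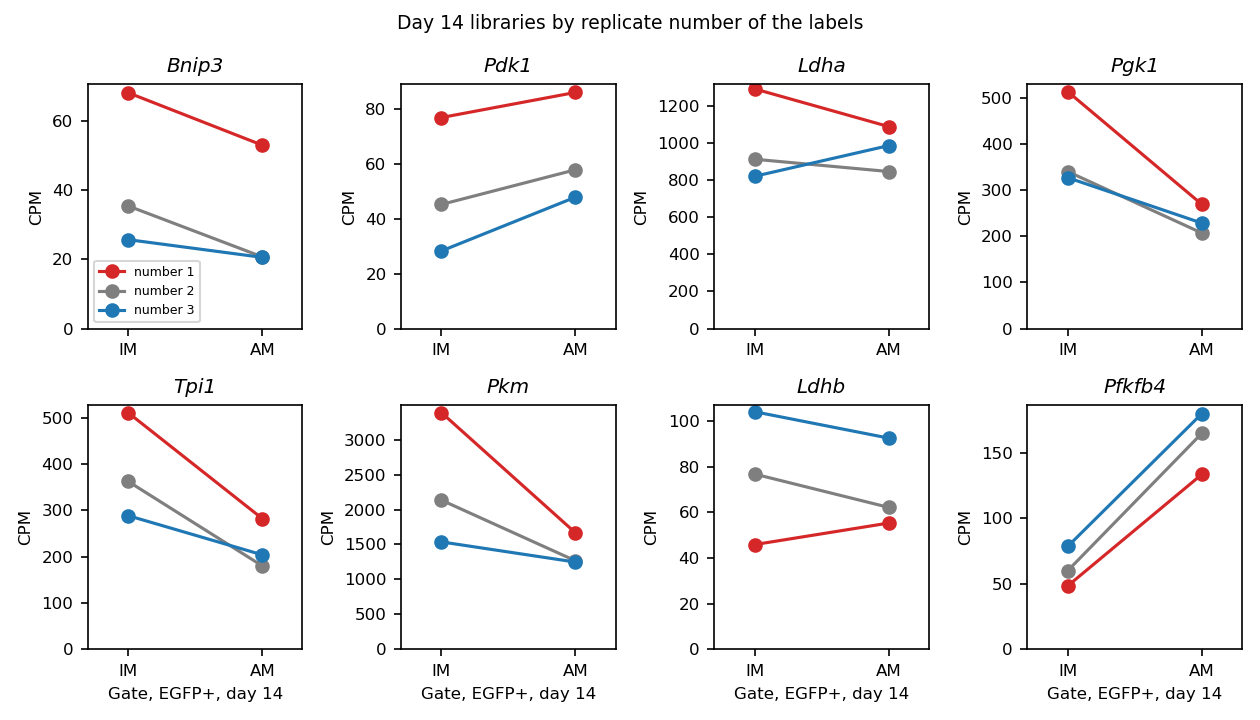
CPM (y axis, from 0) of 8 genes in EGFP+ IMs and AMs at day 14 (x axis), with lines that join libraries of the same replicate number. Number 1 is highest in both gates for Bnip3, Pdk1, Ldha, Pgk1, Tpi1 and Pkm, and number 3 for Ldhb and Pfkfb4.

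The untreated gates differed widely over all genes, and not only in these. Of the 32 genes, 15 were higher in wild-type IMs than in EGFP+ reporter AMs after PBS and 11 were lower, while 39.2% and 39.7% of all 15828 genes were called higher and lower, and the medians were 0.16 over the 32 genes and -0.01 over all genes. Genotype and reporter gate differ here along with the cell gate and cannot be told apart from it. The 3 glucose transporters and 3 hexokinases were higher in IMs, led by Slc2a3 (log2 change 5.63 ± 0.09, adjusted p = 2.53e-19) and Slc2a6 (log2 change 3.35 ± 0.07, adjusted p = 3.63e-18), and so was Slc16a3 (log2 change 3.48 ± 0.07, adjusted p = 1.5e-18). The 10 neutrophil markers, given below, were all higher in these IMs too, as were all 8 T cell, 8 B cell and 8 fibroblast markers, while all 13 cell cycle genes were lower, and their part was not tested. Aldoc was lower in IMs, at 4.29, 3.67 and 4.29 CPM against 61.2, 59.5 and 59.9 CPM in AMs (log2 change -3.89 ± 0.10, adjusted p = 4.01e-17), as was Aldoa at 352, 349 and 377 CPM against 1120.2, 1160.3 and 1125 CPM (log2 change -1.66 ± 0.05, adjusted p = 9.68e-16). Ldha was lower and Ldhb higher in IMs (log2 change -0.95 ± 0.05, adjusted p = 5.71e-12 and log2 change 5.02 ± 0.18, adjusted p = 8.62e-15).

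Regulators and hypoxia genes also differed between the PBS gates. Pfkfb3 was 187, 171 and 169.8 CPM in IMs and 61.3, 62.8 and 65.2 CPM in AMs (log2 change 1.47 ± 0.06, adjusted p = 3.06e-14), and Hif1a was 312, 330.3 and 329.6 CPM and 133, 137 and 138 CPM (log2 change 1.25 ± 0.05, adjusted p = 6.92e-14). Pfkfb4, a relative of Pfkfb3, was 78.4, 81.9 and 77.3 CPM and 182, 177 and 167 CPM (log2 change -1.15 ± 0.06, adjusted p = 1e-12), so the Pfkfb kinases differed in opposite directions. Egln1 was 27.8, 28.5 and 25.9 CPM in IMs and 44.7, 46.5 and 45.8 CPM in AMs (log2 change -0.74 ± 0.07, adjusted p = 2.33e-08), while Egln3 was 15.1, 15.2 and 12.7 CPM and 0.966, 1.3 and 2.52 CPM (log2 change 3.21 ± 0.23, adjusted p = 4e-09), again in opposite directions. Ero1l was 51.8, 49.5 and 52.1 CPM and 78.7, 83.2 and 76.2 CPM (log2 change -0.64 ± 0.06, adjusted p = 2.08e-08), and Ndrg1 was 53.8, 60.4 and 57.7 CPM and 30.4, 29 and 32.5 CPM (log2 change 0.90 ± 0.07, adjusted p = 1.61e-09). Hk1 was 48, 52.3 and 54.3 CPM and 21.4, 25 and 26.9 CPM (log2 change 1.08 ± 0.09, adjusted p = 1.28e-09), and Hk3 was higher in IMs (log2 change 1.33 ± 0.06, adjusted p = 2.31e-13) while Tpi1 and Pdk1 were lower, with log2 changes of -0.84 and -0.71. None of the genes named so far for the PBS gates overlapped between IMs and AMs, but the share of all genes without overlap was not worked out. Single libraries ended the calls of Hk2 (without IM replicate 1, adjusted p = 0.0518), Eno1 (without AM replicate 1, adjusted p = 0.0558) and Pfkl (without IM replicate 1 or 3 or AM replicate 1 or 3, adjusted p from 0.0733 to 0.32).

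Ldhb had the largest change of the 32 genes in AMs at days 14 and 30 against PBS. It was 0.588, 1.06 and 0.823 CPM in PBS AMs, from 14, 26 and 15 counts, 55.3, 62.2 and 92.7 CPM at day 14 (log2 change 6.59 ± 0.26, adjusted p = 4.5e-10) and 35, 39.3 and 37.9 CPM at day 30 (log2 change 5.60 ± 0.27, adjusted p = 2.71e-09). Between days 14 and 30 it fell (log2 change -0.98 ± 0.17, adjusted p = 0.000719), again without overlap. In IMs it was 30.9, 23.5 and 26.7 CPM in wild-type mice after PBS and 35.8, 37.1 and 34.6 CPM after bleomycin (log2 change 0.36 ± 0.09, adjusted p = 0.00114). Its order by group mean was day 14 IMs, day 14 AMs, day 30 AMs, wild-type bleomycin IMs, wild-type PBS IMs, EGFP+ day 7 IMs, EGFP- IMs and PBS AMs. The first pair overlapped, and day 30 AMs overlapped with wild-type bleomycin IMs, as did wild-type PBS IMs with EGFP+ day 7 IMs.

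The log2 ratio of Ldha to Ldhb counts within a library does not depend on library size; it is not corrected for transcript length, so it is compared only between libraries. It was 9.78, 8.94 and 9.34 in PBS AMs and 4.30, 3.77 and 3.42 in day 14 AMs, and at day 30 it was 4.23, 4.19 and 4.25. In the IMs the mean was 3.34 ± 0.19 (SD, n = 3) after PBS and 3.87 ± 0.04 after bleomycin in wild-type mice, 5.47 ± 0.07 in EGFP- cells and 4.89 ± 0.09 in EGFP+ cells at day 7, and 3.79 ± 0.94 at day 14. The PBS AMs thus lay apart from all other libraries, and the day 14 IMs spread most, at 4.82, 3.57 and 2.98. Of 10 markers of interstitial macrophages and monocytes, 5 were higher and 1 lower at day 14, and 6 higher and 0 lower at day 30, than in PBS AMs, and their part in the rise of Ldhb was not tested.

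**Figure D4:**
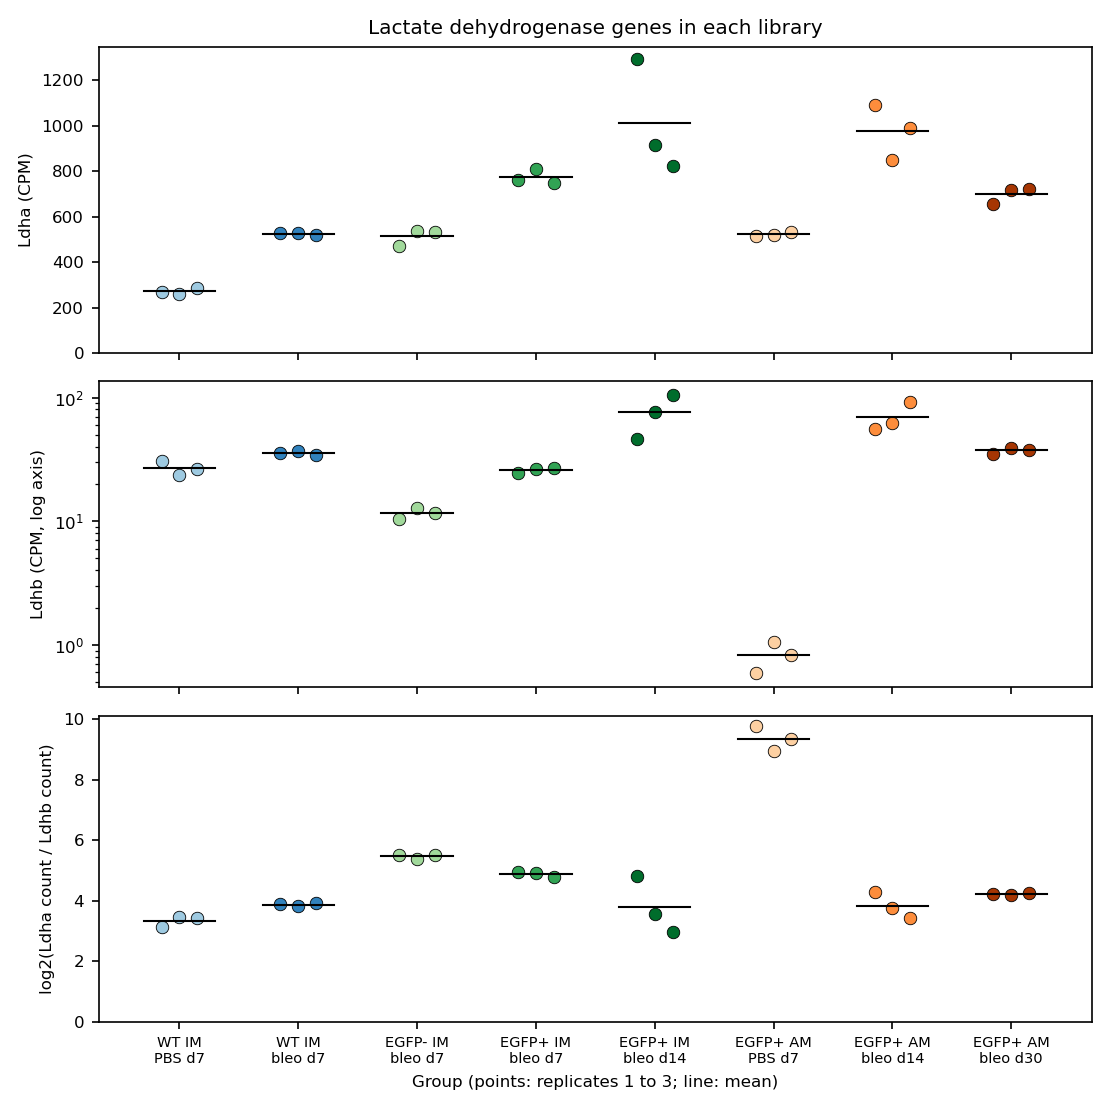
CPM of Ldha (top, linear axis from 0), CPM of Ldhb (middle, log axis) and the log2 ratio of their counts (bottom) in each library of the 8 groups, with lines at the group means. The 3 PBS AM libraries lie at the bottom of the Ldhb panel, at 0.588 to 1.06 CPM, and at the top of the ratio panel.

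Slc2a3, Slc2a6, Slc16a3 and Egln3, which all fell in the 3 IM comparisons, are set beside neutrophil markers, chosen after their values were seen. The summed level of 10 neutrophil markers (S100a8, S100a9, Cxcr2, Ltf, Ngp, Camp, Mmp8, Retnlg, Csf3r and Mmp9) was 7933 to 9385 CPM in wild-type PBS IMs and 1769 to 1867 CPM after bleomycin. It was 4971 to 6489 CPM in EGFP- IMs, 2147 to 2946 CPM in EGFP+ IMs at day 7 and 137 to 211 CPM at day 14. In AMs it was 138 to 217 CPM after PBS, 92.1 to 112 CPM at day 14 and 559 to 644 CPM at day 30. Camp was at 0 in the day 14 AMs. All 10 markers were lower in each of these IM comparisons. At day 14 in AMs 8 were lower and 1 higher than after PBS, and at day 30 in AMs 7 were higher and 0 lower. The part of neutrophil transcripts in the changes of these 4 genes was not tested. Lung epithelial markers summed to 4455 to 6585 CPM in wild-type PBS IMs and to 87.2 to 406 CPM in all other groups, and their part in the wild-type comparison was not tested either.

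**Figure D5:**
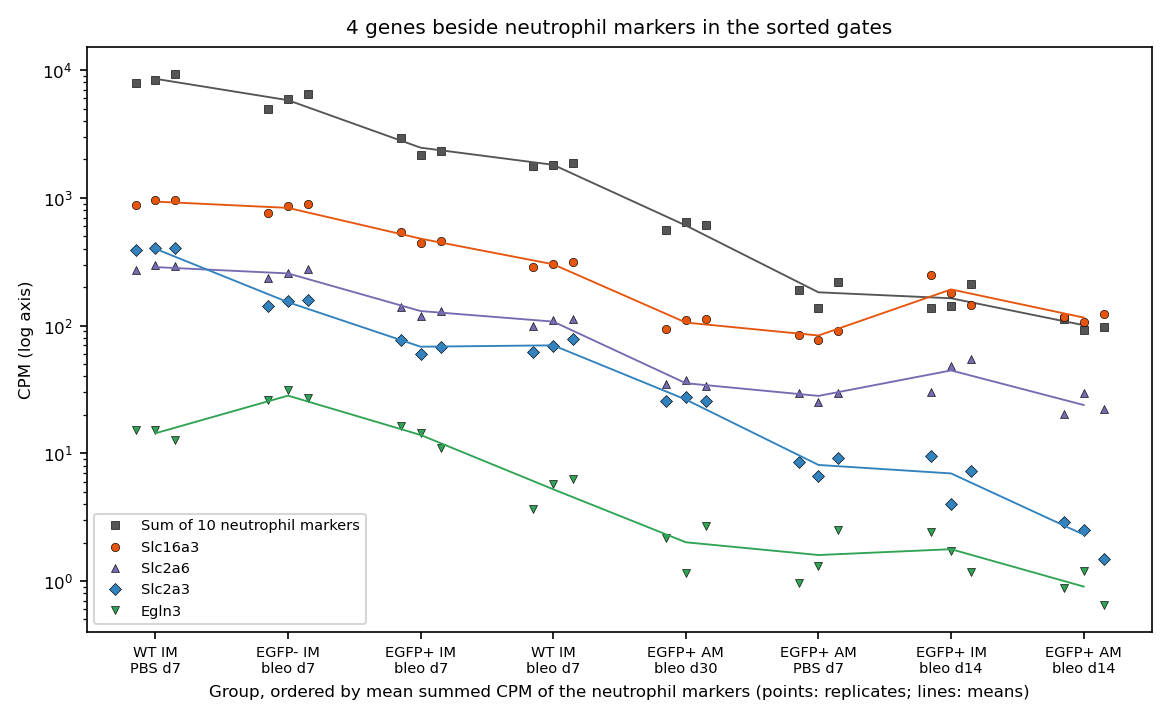
CPM (y axis, log scale) of Slc16a3, Slc2a6, Slc2a3 and Egln3 and the summed CPM of 10 neutrophil markers in each library, with groups ordered by the mean of that sum and lines through the group means. Slc2a3 runs from 388 to 406 CPM in the wild-type PBS IMs, where the marker sum is highest, to 1.49 to 2.90 CPM in the day 14 AMs, where it is lowest. The genes also depart from the marker order. Slc2a3 is 62.2 to 78.7 CPM in wild-type bleomycin IMs and 59.8 to 76.7 CPM in EGFP+ day 7 IMs, where the marker sum is higher. Egln3 is 12.7 to 15.2 CPM in wild-type PBS IMs and 26.1 to 31.4 CPM in EGFP- IMs. Slc16a3 is 93.4 to 113 CPM in day 30 AMs and 145 to 250.3 CPM in day 14 IMs, where the marker sum is lower.

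The enzymes that rose in the IM and AM comparisons are also set beside other values. All 13 cell cycle genes were higher in wild-type IMs after bleomycin (summed level 346 to 380.1 CPM after PBS and 742 to 784 CPM after bleomycin) and all 13 were higher in EGFP+ than in EGFP- IMs (375 to 399 CPM and 587 to 738 CPM). In EGFP+ IMs at day 14 against day 7, 0 of 13 were higher and 10 lower. In AMs against PBS, 5 of 13 were higher and 0 lower at day 14, and the counts were the same at day 30. Mitochondrially encoded transcripts, a sign of RNA quality, had 7 of 12 lower after bleomycin in wild-type IMs and 11 of 12 higher in day 14 AMs than in PBS AMs. The part of either in the rise of the enzymes was not tested.

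Other genes of the same pathways were taken from lists fixed by name. Of 11 pentose phosphate genes, 7 were higher and 1 lower after bleomycin in wild-type IMs, 7 higher and 0 lower in EGFP+ against EGFP- IMs, and 7 higher and 0 lower in IMs at day 14 against day 7. In AMs 8 were higher and 1 lower at day 14 and 6 higher and 1 lower at day 30 against PBS, and 0 were higher and 4 lower at day 30 against day 14. In IMs against AMs, 1 was higher and 2 lower at day 14, and 0 were higher and 10 lower after PBS. Over all genes, in the same order of comparisons, 35.6%, 17.2%, 25.3%, 27.3%, 24.8%, 19.6%, 10.8% and 39.2% were called higher and 34.5%, 17.6%, 26.9%, 27.6%, 23.1%, 18.7%, 10.2% and 39.7% lower. Pgd, which reduces NADP in that pathway, was 276 to 290.1 CPM in wild-type PBS IMs and 381 to 399 CPM after bleomycin (log2 change 0.41 ± 0.05, adjusted p = 1.15e-07), and in AMs it was 468 to 499 CPM after PBS and 688 to 731 CPM at day 14 (log2 change 0.76 ± 0.07, adjusted p = 1.23e-07). Slc37a2, a sugar phosphate transporter, was 19.5 to 23 CPM in wild-type PBS IMs and 129 to 130.4 CPM after bleomycin (log2 change 2.55 ± 0.07, adjusted p = 5.14e-19). Pdk4, another inhibitor of pyruvate dehydrogenase, was 131 to 142 CPM in PBS AMs, 2.72 to 5.80 CPM at day 14 (log2 change -4.88 ± 0.18, adjusted p = 1.52e-11) and 21.9 to 29.4 CPM at day 30 (log2 change -2.33 ± 0.14, adjusted p = 5.85e-09). Pdk1 and Pdk4 thus moved in opposite directions in AMs at day 14, with Pdk1 called higher and Pdk4 lower.

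Further hypoxia-inducible genes gave mixed counts. Of 27 tested, 12 were higher and 11 lower after bleomycin in wild-type IMs (35.6% and 34.5% of all genes), 5 higher and 8 lower in EGFP+ against EGFP- IMs (17.2% and 17.6%), and 6 higher and 10 lower in IMs at day 14 against day 7 (25.3% and 26.9%). Of 25 tested in AMs, 11 were higher and 6 lower at day 14 against PBS (27.3% and 27.6% of all genes), 8 higher and 7 lower at day 30 against PBS (24.8% and 23.1%), and 4 higher and 7 lower at day 30 against day 14 (19.6% and 18.7%). Between IMs and AMs, 3 of 23 were higher and 2 lower at day 14 (10.8% and 10.2%), and 15 of 26 were higher and 8 lower after PBS (39.2% and 39.7%). Many of these counts thus lie near the share over all genes, and nothing particular to the list is read from them. Hilpda, which binds lipid droplets and inhibits lipolysis, was 70.3 to 77.7 CPM in wild-type PBS IMs and 161 to 178 CPM after bleomycin (log2 change 1.16 ± 0.06, adjusted p = 5.5e-14), and in AMs it fell from 211 to 294 CPM at day 14 to 113 to 119 CPM at day 30 (log2 change -1.15 ± 0.10, adjusted p = 2.94e-07). Vegfa, the vascular growth factor, was 142 to 185 CPM in day 14 IMs and 30.8 to 44.1 CPM in day 14 AMs (log2 change 2.26 ± 0.17, adjusted p = 1.16e-05). Epas1, the alpha subunit of another hypoxia inducible factor, rose in AMs from 21.1 to 24.1 CPM after PBS to 58.2 to 70.6 CPM at day 14 (log2 change 1.65 ± 0.09, adjusted p = 1.31e-10) and 97.5 to 106 CPM at day 30 (log2 change 2.23 ± 0.09, adjusted p = 2.57e-12), while in wild-type IMs it fell from 38.6 to 56.8 CPM to 9.80 to 11.4 CPM after bleomycin (log2 change -2.10 ± 0.15, adjusted p = 4.79e-08). In AMs the alpha subunit genes Hif1a and Epas1 thus both rose at day 14, and between days 14 and 30 Hif1a fell (log2 change -0.54 ± 0.08, adjusted p = 5.1e-05) while Epas1 rose (log2 change 0.59 ± 0.08, adjusted p = 4.43e-05).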

How the data were processed

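The deposited values are raw read counts per gene in 2 tables of 15 and 9 libraries, made by the authors, per the submitters' processing notes, with FastQC 0.11.5, Trimmomatic 0.38, HISAT2 2.1.0, featureCounts 1.6.3 and SAMtools on GRCm38. The annotation release and the strand setting of the counting are not given in the sources used here, so reads of overlapping genes on opposite strands may not be told apart. Total counts ran from 13450053 to 24580620 per library. The 49022 genes in both tables held at least 99.486% of the counts, and 3 columns that matched no sample's labels were not used.

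Each comparison was fitted on all genes that passed edgeR's filter on low counts, with TMM scaling and edgeR's quasi-likelihood test (edgeR 4.0.16, R 4.3.3), and p-values were adjusted by Benjamini-Hochberg over all genes tested. Comparisons within the first table, within the second and across both were fitted on the libraries named in the design, without a replicate block. The fit was tested on simulated data. All 32 genes could be named in every comparison. Values per library were set for genes called with a change of 1.5-fold or more and a level of 10 CPM or more in the group where they were higher, and in any case for Slc2a1, Hk2, Hk3, Pfkfb3, Gapdh, Pkm, Ldha, Ldhb, Slc16a3, Pdk1, Egln3 and Hif1a. Other genes of the pathway lists were named only if among the 4 of their list with the smallest p in a comparison. The genes and lists were chosen with earlier results of these data known.

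Alternatives were other scaling factors, DESeq2 1.42.0, no filter, only the groups compared, all 24 libraries together, each library left out, and the replicate number as a block. Leaving out replicate 1 of both day 14 groups was added after seeing the values. For day 14 IMs and AMs the numbers in the labels may pair the libraries, since deviations of same-numbered libraries from their group means correlated at 0.251, 0.155 and 0.202. The reported test of that comparison had no block and so did not use such a pairing, which entered only the alternative with a block. That pairing comes from the data, since the labels do not say what a number marks.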

Additional observations from a re-analysis of the deposited data

How the results depend on the processing

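Of 172 called changes of the 32 genes, refitted 2243 times under the alternatives, 127 refits lost the call and 0 reversed its direction. Of 84 changes not called, in 1117 refits, 87 refits gained a call and 78 had the other sign. With total-count scaling, 5 genes were higher in EGFP+ IMs at day 14 than at day 7 (11 in the reported fit). The number lower in day 14 AMs against PBS was 2 (reported 1) with total-count scaling, with only the 2 groups compared, and without every day 14 replicate 1. Over all genes these fits called 5570 of 14706, 3968 of 14274 and 3859 of 15110 lower, in that order.

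With 1 library left out at a time, the number higher in EGFP+ against EGFP- IMs ran from 6 to 10, that lower in day 14 AMs against PBS from 1 to 2, and that lower in day 30 AMs against PBS from 1 to 3. The number higher in day 30 against day 14 AMs ran from 3 to 6, and that higher in day 14 IMs against AMs from 9 to 17. Over all genes, in the same order, these numbers ran from 1670 to 2107, 3501 to 4195, 2859 to 3197, 2445 to 2856 and 972 to 1797. With a pseudocount of 10 the mean log2 ratio of Ldha to Ldhb was 8.69 in PBS AMs and 5.40 in EGFP- IMs. The cause of these shifts was not tested, beyond the fewer libraries in each refit.

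With the replicate block, 18 genes were higher in day 14 IMs than in AMs. Over all 13460 genes the block gave 1841 higher and 1807 lower calls in place of 1454 and 1378. The block also made Aldoc higher (adjusted p = 0.0228) and ended the call of Pgk1 (adjusted p = 0.0614) in IMs at day 14 against day 7, made Pdk1 higher in day 30 AMs against PBS (adjusted p = 0.0116), and made Pgk1 and Pkm higher in wild-type IMs against AMs after PBS (adjusted p of 0.035 and 0.0255). In those comparisons the libraries share only a number. In day 14 AMs against PBS and in the PBS gates each of the 3 pairs correlated best with its own number. These correlations were only 0.023 to 0.066 and 0.03 to 0.057, against at most 0.031 and 0.005 with another number. The groups differ in treatment and day or in genotype, so their animals differ, and no pairing is read from these values. Counting depth limits Ldhb in PBS AMs, with 14 to 26 counts, and Egln3 in AMs, with 10 to 46 counts. It also limits Slc2a3 in day 14 AMs, with 23 to 43 counts, and Egln3 in day 14 IMs, with 19 to 34 counts.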
